A study of Mus musculus with 12 samples.

Results

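Aldh1l1, Aqp4, Slc1a2, Slc1a3, Glul, Aldoc, Ndrg2, Apoe and Clu are genes of astrocyte metabolism and transport. They were chosen by name, as the probe sets whose platform annotation gives exactly 1 symbol, that of one of these genes. The 9 genes were read by 10 of the 21780 probe sets with 1 symbol, which cover 19934 genes, since Glul has a pair of probe sets and each other gene has 1.

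Expression was measured on whole-transcript arrays, 1 array for each of 12 mouse brain cell cultures, to ask how the cell of origin bears on glioblastoma cells. The 9 tumour cultures were mGC1_GFAP from G/tv-a;Arf-/- mice, mGC2_NES from N/tv-a;Arf-/- mice and mGC3_CNP from C/tv-a;Arf-/- mice, with 3 cultures each. The tumours had been started in adult brains with DF-1 chicken cells that made the virus RCAS-PDGFB-HA, which carries the growth factor PDGFB. The remaining 3 cultures, 1 from each of the same lines, were neural stem cells (NSC) grown from adult subventricular zone. All 12 cultures thus lacked the tumour suppressor Arf and carried tv-a, the receptor through which the virus enters. In these lines the promoter of Gfap (astrocytes and stem cells), Nes (progenitors) or Cnp (oligodendrocyte lineage) drives tv-a, so that origin and mouse line coincide in the tumour cultures. All cells grew attached in stem cell medium without treatment, and total RNA was taken. The labels call the tumour cultures of a line biological replicates without saying if they came from separate animals. The p-values therefore rest on the spread among cultures, which may not be that among animals.

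Astrocytes clear glutamate from synapses through the transporters encoded by Slc1a2 and Slc1a3 and turn it into glutamine with the enzyme encoded by Glul. They let water pass at their endfeet through the channel encoded by Aqp4, use the folate enzyme encoded by Aldh1l1 and the brain aldolase encoded by Aldoc, and release the lipoprotein components encoded by Apoe and Clu. Several of these genes are already active in radial glia and adult neural stem cells, which share much of the astrocyte programme.

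The values are log2 intensities of probe sets, so a difference of 1 is 2-fold, and levels of different probe sets cannot be ranked against each other. The array medians lay between 7.60 and 7.66. Transcripts of 4 spermatid genes that brain cultures should lack (Prm2, Tnp1, Tnp2, Odf1) read between 5.60 and 7.42, here called the range of absent transcripts. Where the lower group mean of a called gene is at or below 7.42, its difference is therefore a lower bound. A difference is called at a limma adjusted p under 0.05, and the tumour mean is the mean of the 3 tumour group means.

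In the tumour cultures, 4 of the 10 member probe sets were lower than in NSC cultures, 2 were higher and 4 did not pass the test. Aldh1l1, Slc1a3, Aqp4 and Apoe fell, Ndrg2 and Aldoc rose, and Slc1a2, Clu and both probe sets of Glul did not pass. The called share of all probe sets in the same comparison was 36.7%, with 17.6% higher and 19.2% lower. The median difference of the members was -0.22, against 0.01 over all probe sets tested. The arrays of tumour and NSC cultures did not overlap for 5 member probe sets, as they did not for 27.3% of all probe sets. Bulk RNA cannot tell fewer cells that make a transcript from less transcript in each cell.

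**Figure D1:**
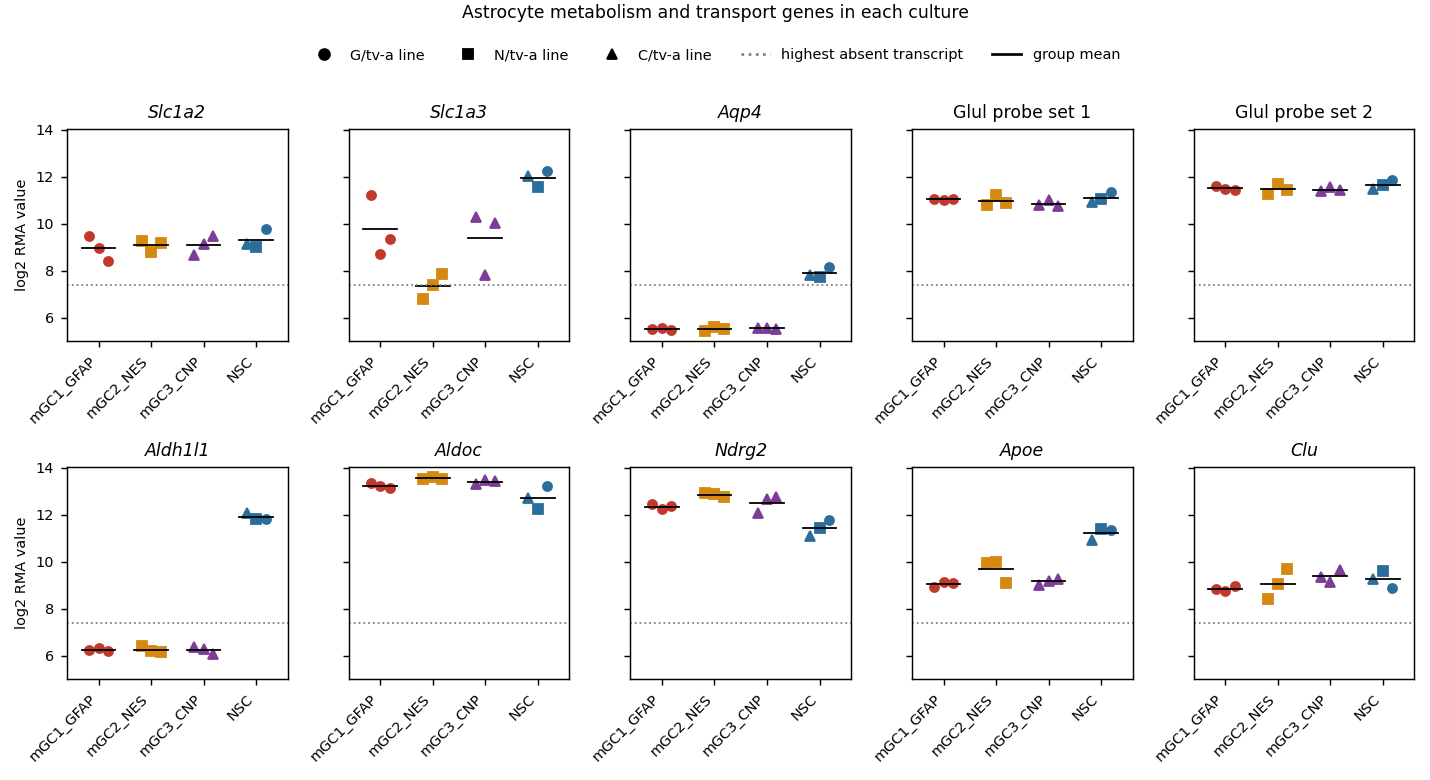
Log2 value of each member probe set (y axis) in each culture, by group (x axis). Each point is 1 culture, its shape gives the mouse line, the bar is the group mean, and the dotted line at 7.42 is the top of the range of absent transcripts. Aldh1l1 and Aqp4 lie below that line in all 9 tumour cultures and above it in all 3 NSC cultures, while Slc1a3 is scattered from 6.81 to 11.23 among the tumour cultures.

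The 5 called genes that have a promoter window in the RefSeq table are shown here because they moved between tumour and NSC cultures, in both directions. Each window runs from 250 bases before to 50 bases after the annotated start, on the gene's strand in GRCm38.p6. Capitals mark matches, on either strand, to TTGGC (a nuclear factor I core), TTCNNNGAA (a STAT site), CAGCTG (an E-box) or ACAAAG (a SOX site).
Aldh1l1, chr6:90550543-90550842, plus strand: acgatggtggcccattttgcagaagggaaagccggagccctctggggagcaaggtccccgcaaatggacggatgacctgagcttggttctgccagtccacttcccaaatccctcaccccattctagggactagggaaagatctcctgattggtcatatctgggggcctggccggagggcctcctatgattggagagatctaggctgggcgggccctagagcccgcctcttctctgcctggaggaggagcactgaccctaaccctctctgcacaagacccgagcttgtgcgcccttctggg
Slc1a3, chr15:8710758-8711057, minus strand: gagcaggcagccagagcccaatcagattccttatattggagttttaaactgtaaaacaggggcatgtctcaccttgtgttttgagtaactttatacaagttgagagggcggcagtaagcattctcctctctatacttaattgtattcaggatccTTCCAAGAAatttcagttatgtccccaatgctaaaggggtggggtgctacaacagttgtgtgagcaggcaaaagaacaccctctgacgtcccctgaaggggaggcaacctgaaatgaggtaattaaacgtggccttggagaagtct
Apoe, chr7:19699139-19699438, minus strand: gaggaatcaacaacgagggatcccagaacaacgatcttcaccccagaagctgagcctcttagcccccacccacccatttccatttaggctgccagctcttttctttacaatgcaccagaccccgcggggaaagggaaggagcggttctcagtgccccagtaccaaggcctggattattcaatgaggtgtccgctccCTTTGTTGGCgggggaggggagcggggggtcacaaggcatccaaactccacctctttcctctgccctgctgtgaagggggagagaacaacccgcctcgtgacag
Ndrg2, chr14:51913955-51914254, minus strand: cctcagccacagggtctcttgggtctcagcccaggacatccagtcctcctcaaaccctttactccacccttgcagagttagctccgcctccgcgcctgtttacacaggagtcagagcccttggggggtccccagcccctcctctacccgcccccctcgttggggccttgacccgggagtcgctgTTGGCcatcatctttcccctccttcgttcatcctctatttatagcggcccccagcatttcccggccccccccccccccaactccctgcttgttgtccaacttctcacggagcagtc
Aldoc, chr11:78322823-78323122, plus strand: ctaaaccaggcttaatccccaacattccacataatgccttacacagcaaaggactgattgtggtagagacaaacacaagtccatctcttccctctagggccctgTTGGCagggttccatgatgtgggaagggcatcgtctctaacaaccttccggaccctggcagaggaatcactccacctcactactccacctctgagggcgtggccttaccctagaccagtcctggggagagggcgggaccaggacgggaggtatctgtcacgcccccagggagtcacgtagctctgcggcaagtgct
The Aldh1l1 window held none of these motifs. The Slc1a3 window held 1 STAT motif, which starts 96 bases before the start site, at -96. Apoe, Ndrg2 and Aldoc each held 1 TTGGC, at -49, -66 and -146, and in Apoe it overlaps ACAAAG on the other strand, whose match begins at -54, so that the capitals run together. Among the 7 members with a window used here, only the most upstream one of each gene was counted. TTGGC was found in 5, CAGCTG in 2, and TTCNNNGAA and ACAAAG in 1 each. Of the 32851 windows in the table, 46.7% hold TTGGC, 16.3% CAGCTG, 8.30% TTCNNNGAA and 18.7% ACAAAG. The full palindromic nuclear factor I site was in 0 of the 7 and in 0.0365% of all windows. Apoe and Ndrg2 have 3 windows each and Aldoc has 2, of which the most upstream is shown. The windows not shown held 2 TTCNNNGAA in Aldoc (-124 and -83) and 1 TTGGC each in Ndrg2 (-190) and Apoe (-57). A match is a match of letters only, and TTGGC was present both in genes that rose and in one that fell.

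Of the genes of the glial glutamate transporters, Slc1a3 fell in tumour cultures and Slc1a2 did not pass the test, and whether their changes differ was not tested. Slc1a3, which encodes GLAST, an early glial transporter also found in neural stem cells, read 11.23, 8.73 and 9.35 in the mGC1_GFAP cultures (replicates 1 to 3). It read 6.81, 7.39 and 7.87 in mGC2_NES and 10.31, 7.82 and 10.05 in mGC3_CNP. The NSC cultures read 12.05 (C/tv-a), 11.56 (N/tv-a) and 12.27 (G/tv-a). All 9 tumour cultures lay below all 3 NSC cultures, with mGC1_GFAP replicate 1 closest to them and 2 of the mGC2_NES cultures at the level of absent transcripts. Slc1a3 averaged 8.84 ± 1.49 in tumour cultures (SD, n = 9) and 11.96 ± 0.36 in NSC cultures (SD, n = 3). It fell by 3.12 ± 0.56 (SE, limma adjusted p = 9.31e-04), which is 8.70-fold, with a 95% interval of -4.36 to -1.89.

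From low to high, the Slc1a3 means were 7.36 ± 0.53 in mGC2_NES, 9.39 ± 1.37 in mGC3_CNP, 9.77 ± 1.30 in mGC1_GFAP and 11.96 ± 0.36 in NSC (SD, n = 3 each). mGC1_GFAP and mGC3_CNP are neighbours that overlap, with a difference of 0.38 ± 0.75 and a 95% interval of -1.31 to 2.07. Slc1a3 fell in each origin against NSC, with differences of -4.60 ± 0.69 in mGC2_NES, a lower bound on the size (adjusted p = 2.97e-04), -2.57 ± 0.69 in mGC3_CNP (adjusted p = 0.0140) and -2.19 ± 0.69 in mGC1_GFAP (adjusted p = 0.0325). The mGC1_GFAP call is fragile. It was lost without the C/tv-a, N/tv-a or G/tv-a NSC culture, at adjusted p = 0.0838, 0.0507 and 0.0899, and without mGC1_GFAP replicate 2 or 3, at 0.128 and 0.0984. It was also lost with a variance prior that follows intensity (adjusted p = 0.0594) and with array weights (0.0532).

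Slc1a2 encodes GLT-1, the main glutamate transporter of mature astrocytes. It read 9.50, 8.98 and 8.42 in mGC1_GFAP, 9.26, 8.82 and 9.20 in mGC2_NES, and 8.69, 9.13 and 9.48 in mGC3_CNP. In NSC cultures it read 9.12 (C/tv-a), 9.01 (N/tv-a) and 9.77 (G/tv-a). Tumour and NSC cultures overlapped, and the highest value was that of the G/tv-a NSC culture. The difference was -0.25 ± 0.23 (SE, 95% interval -0.76 to 0.27, limma adjusted p = 0.471), with group means of 9.05 ± 0.36 in tumour cultures (SD, n = 9) and 9.30 ± 0.41 in NSC cultures (SD, n = 3). By origin it was -0.33 in mGC1_GFAP, -0.21 in mGC2_NES and -0.20 in mGC3_CNP, none of which passed.

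The water channel gene Aqp4 read 5.50, 5.58 and 5.49 in mGC1_GFAP, 5.42, 5.59 and 5.54 in mGC2_NES, and 5.55, 5.57 and 5.52 in mGC3_CNP. Values in NSC were 7.82 (C/tv-a), 7.73 (N/tv-a) and 8.18 (G/tv-a). Every tumour culture lay below the range of absent transcripts, and the NSC cultures stood only a little above that range. Aqp4 averaged 5.53 ± 0.05 in tumour cultures (SD, n = 9) and 7.91 ± 0.24 in NSC cultures (SD, n = 3), so it fell, with a difference of -2.38 ± 0.08 (SE, adjusted p = 2.14e-09), or at least 5.21-fold. The differences by origin were -2.38, -2.39 and -2.36 in mGC1_GFAP, mGC2_NES and mGC3_CNP, each likewise bounded by a tumour mean at background.

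Among the metabolic genes, Aldh1l1 showed the clearest separation and Glul none that passed. Aldh1l1 encodes formyltetrahydrofolate dehydrogenase, a folate enzyme widely used as an astrocyte marker. It read 6.26, 6.32 and 6.19 in mGC1_GFAP, 6.43, 6.20 and 6.16 in mGC2_NES, and 6.35, 6.28 and 6.10 in mGC3_CNP. The NSC cultures read 12.09 (C/tv-a), 11.84 (N/tv-a) and 11.85 (G/tv-a). All tumour cultures were within the range of absent transcripts, with a range of 0.33 among the 9. Aldh1l1 averaged 6.25 ± 0.10 in tumour cultures (SD, n = 9) and 11.92 ± 0.14 in NSC cultures (SD, n = 3), and it fell, with a difference of -5.67 ± 0.08 (SE, adjusted p = 1.89e-12), or at least 50.9-fold. By origin the differences came to -5.67 for mGC1_GFAP, -5.66 for mGC2_NES and -5.68 for mGC3_CNP, each a lower bound with its tumour mean at background, so that they cannot show whether the origins differ.

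Glul encodes glutamine synthetase. Its first probe set read 11.04, 11.03 and 11.04 in mGC1_GFAP, 10.79, 11.24 and 10.88 in mGC2_NES, 10.79, 11.01 and 10.78 in mGC3_CNP, and 10.92, 11.06 and 11.34 in the C/tv-a, N/tv-a and G/tv-a NSC cultures. Its second probe set read 11.45 to 11.60 in mGC1_GFAP, 11.29 to 11.68 in mGC2_NES, 11.40 to 11.55 in mGC3_CNP and 11.48 to 11.87 in NSC cultures. On both probe sets the groups overlapped and the G/tv-a NSC culture was highest. The differences were -0.15 ± 0.11 (95% interval -0.38 to 0.08, adjusted p = 0.321) and -0.19 ± 0.09 (95% interval -0.39 to 0.02, adjusted p = 0.153). By origin, the first probe set differed by -0.07 for mGC1_GFAP, -0.13 for mGC2_NES and -0.24 for mGC3_CNP, and none passed. The gene lies on chromosome 1 (153899929 to 153909723, GRCm38.p6), and the number of the first probe set falls between those of Teddm1a and Zfp648 on the same chromosome, as it does near neighbours on the gene's own chromosome for the other 8 members. The number of the second falls between those of C1d and Spred2 on chromosome 11, so its assignment to Glul is uncertain, and whether it reads another copy was not tested.

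Aldoc encodes aldolase C, the glycolytic aldolase of the brain. It read 13.36, 13.25 and 13.13 in mGC1_GFAP, 13.52, 13.62 and 13.53 in mGC2_NES, and 13.31, 13.48 and 13.43 in mGC3_CNP. In NSC cultures it read 12.72 (C/tv-a), 12.24 (N/tv-a) and 13.24 (G/tv-a). The G/tv-a NSC culture overlapped the tumour cultures, and the other two lay below all of them. Aldoc averaged 13.40 ± 0.16 in tumour cultures (SD, n = 9) and 12.73 ± 0.50 in NSC cultures (SD, n = 3). It rose by 0.67 ± 0.15 (SE, 95% interval 0.33 to 1.00, adjusted p = 0.00437), or 1.59-fold. The size depends on which NSC cultures are used, at 0.42 without the N/tv-a culture (adjusted p = 0.0174) and 0.92 without the G/tv-a culture (adjusted p = 9.66e-05).

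By origin, Aldoc was highest in mGC2_NES at 13.56 ± 0.06, then in mGC3_CNP at 13.40 ± 0.09, mGC1_GFAP at 13.24 ± 0.12 and NSC at 12.73 ± 0.50 (SD, n = 3 each). It rose in mGC2_NES by 0.82 ± 0.19 (adjusted p = 0.00466) and in mGC3_CNP by 0.67 ± 0.19 (adjusted p = 0.0171). In mGC1_GFAP the difference was 0.51 ± 0.19 and did not pass (adjusted p = 0.0616). The mGC3_CNP call was lost without mGC3_CNP replicate 2 (0.63, adjusted p = 0.0565), and its size was 0.43 without the N/tv-a NSC culture (adjusted p = 0.0413). The mGC1_GFAP difference was 0.27 without the N/tv-a NSC culture (adjusted p = 0.201). It passed without the G/tv-a NSC culture (0.76, adjusted p = 0.00128), after another round of quantile normalization (0.53, adjusted p = 0.0433) and with array weights (0.55, adjusted p = 0.0264). The mGC1_GFAP mean was level with the NSC culture of its own line, at 13.24 in both.

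Ndrg2 encodes a cytoplasmic protein of the NDRG family that marks astrocytes in adult brain. It read 12.45, 12.24 and 12.37 in mGC1_GFAP, 12.92, 12.91 and 12.75 in mGC2_NES, and 12.09, 12.66 and 12.75 in mGC3_CNP. Values in NSC were 11.11 (C/tv-a), 11.45 (N/tv-a) and 11.79 (G/tv-a). All 9 tumour cultures lay above all 3 NSC cultures. Ndrg2 averaged 12.57 ± 0.30 in tumour cultures (SD, n = 9) and 11.45 ± 0.34 in NSC cultures (SD, n = 3), and it rose by 1.12 ± 0.15 (SE, 95% interval 0.79 to 1.45, adjusted p = 1.11e-04), or 2.18-fold. From high to low, the group means were 12.86 ± 0.10 in mGC2_NES, 12.50 ± 0.36 in mGC3_CNP, 12.35 ± 0.11 in mGC1_GFAP and 11.45 ± 0.34 in NSC (SD, n = 3 each). Ndrg2 rose by 1.41 in mGC2_NES (adjusted p = 1.14e-04), by 1.05 in mGC3_CNP (adjusted p = 0.00109) and by 0.90 in mGC1_GFAP (adjusted p = 0.00317).

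Apoe encodes apolipoprotein E, the main lipid carrier released by astrocytes and also made by microglia. It read 8.94, 9.16 and 9.10 in mGC1_GFAP, 9.96, 9.99 and 9.11 in mGC2_NES, and 9.01, 9.20 and 9.28 in mGC3_CNP. The NSC cultures read 10.91 (C/tv-a), 11.38 (N/tv-a) and 11.37 (G/tv-a). All tumour cultures lay below all NSC cultures, and mGC2_NES replicates 1 and 2 stood above the other 7 tumour cultures. Apoe averaged 9.31 ± 0.39 in tumour cultures (SD, n = 9) and 11.22 ± 0.27 in NSC cultures (SD, n = 3), and it fell by 1.91 ± 0.17 (SE, 95% interval -2.29 to -1.54, adjusted p = 4.57e-06), or 3.77-fold. From low to high, the group means were 9.07 ± 0.11 in mGC1_GFAP, 9.16 ± 0.14 in mGC3_CNP, 9.69 ± 0.50 in mGC2_NES and 11.22 ± 0.27 in NSC (SD, n = 3 each). Apoe fell by 2.15 in mGC1_GFAP (adjusted p = 1.53e-05), by 1.53 in mGC2_NES (adjusted p = 1.59e-04) and by 2.06 in mGC3_CNP (adjusted p = 1.99e-05). Of 10 measured microglia and macrophage markers, 0 rose and 2 fell in tumour cultures, Cd68 (-0.57) and P2ry12 (-0.81), the second with both group means in the range of absent transcripts. Of the 10, 7 had means within the range of absent transcripts in both tumour and NSC cultures, among them Csf1r, Ptprc, Aif1 and Itgam at 5.84 to 6.37. The other 3 had means above that range, with Cd68 at 7.90 in tumour and 8.48 in NSC cultures, Trem2 at 7.63 in tumour and 7.62 in NSC cultures and Cx3cr1 at 7.54 in tumour and 7.49 in NSC cultures. The summed log2 level of the 10 markers was 65.7 to 67.5 in tumour cultures and 67.5 to 68.3 in NSC cultures, and its part in the Apoe difference was not tested.

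Clu encodes clusterin, a secreted chaperone carried on lipoproteins. It read 8.82, 8.76 and 8.98 in mGC1_GFAP, 8.43, 9.05 and 9.72 in mGC2_NES, and 9.37, 9.15 and 9.65 in mGC3_CNP. In NSC cultures it read 9.29 (C/tv-a), 9.62 (N/tv-a) and 8.88 (G/tv-a). The NSC values lay inside the range of the tumour cultures. The difference was -0.16 ± 0.23 (SE, 95% interval -0.65 to 0.34, adjusted p = 0.655), and by origin -0.41 in mGC1_GFAP, -0.19 in mGC2_NES and 0.13 in mGC3_CNP, none of which passed.

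**Figure D2:**
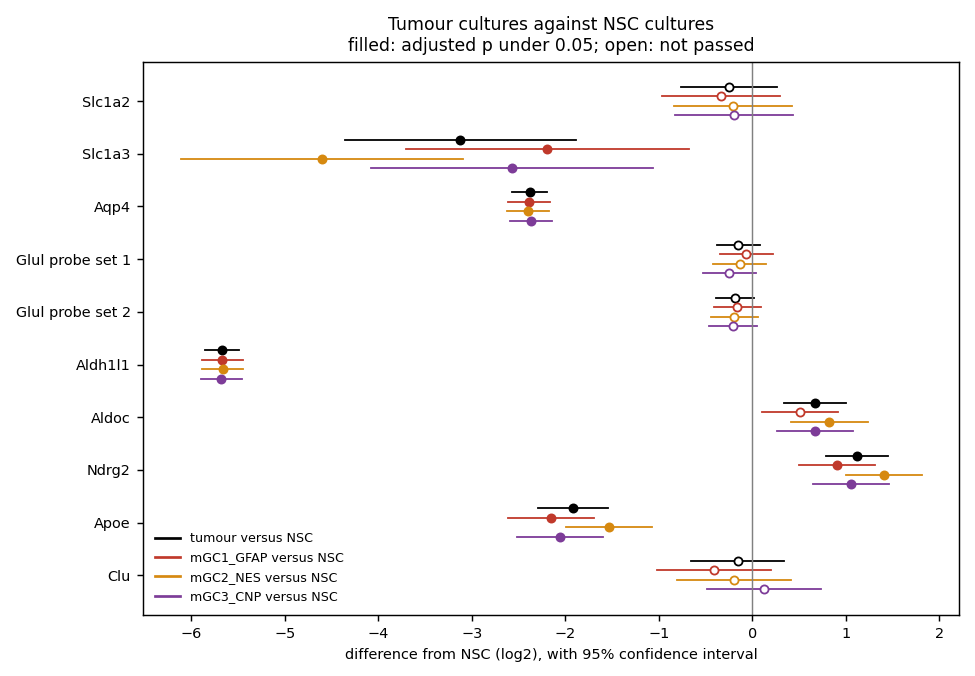
Difference from the NSC mean (x axis, log2) of each member probe set (y axis) for all tumour cultures and for each origin, with 95% confidence intervals from limma. Filled points have an adjusted p under 0.05 and open points do not. Aldh1l1, Aqp4, Slc1a3 and Apoe lie left of 0 and Ndrg2 right of it in all 3 origins, while the mGC1_GFAP point of Aldoc is open.

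Each origin was set against the same 3 NSC arrays, so the 3 comparisons are not independent. In mGC1_GFAP, 1 member probe set was higher, 4 were lower and 5 did not pass, where 29.3% of all probe sets were called (13.9% higher and 15.3% lower). In mGC2_NES, 2 were higher, 4 were lower and 4 did not pass, where 34.9% of all were called (16.6% higher and 18.2% lower). The counts in mGC3_CNP were the same as in mGC2_NES, where 30.3% of all were called (14.9% higher and 15.5% lower). Arrays of tumour and NSC cultures did not overlap for 5 member probe sets in mGC1_GFAP and for 6 each in mGC2_NES and mGC3_CNP, against 43.3%, 46% and 42.4% of all probe sets. The member medians were -0.37, -0.20 and -0.23 for mGC1_GFAP, mGC2_NES and mGC3_CNP.

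Each line had 1 NSC culture, so a difference within a line carries no test. Against the NSC culture of its own line, Slc1a3 differed by -2.50 in mGC1_GFAP, -4.20 in mGC2_NES and -2.66 in mGC3_CNP. Apoe differed by -2.30, -1.70 and -1.75 in the same order of groups, and Ndrg2 by 0.56, 1.41 and 1.40. Aldoc differed by 0.01 in mGC1_GFAP, 1.31 in mGC2_NES and 0.69 in mGC3_CNP. The direction within each line was that of the pooled comparison for these genes, although for Aldoc in the G/tv-a line the size was near 0. The G/tv-a NSC culture was the highest of the 3 for 7 of the 10 member probe sets, while it was the highest for 38.3% of all probe sets. The 7 were Slc1a2, Slc1a3, Aqp4, Aldoc, Ndrg2 and both probe sets of Glul, the second of uncertain assignment. Gfap, in contrast, read 8.43 in the C/tv-a, 7.71 in the N/tv-a and 7.55 in the G/tv-a NSC culture.

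Among the 3 tumour groups, 0 of the 10 member probe sets passed in any pairwise comparison (limma). All probe sets were called at 0.487% between mGC1_GFAP and mGC3_CNP, 0.459% between mGC2_NES and mGC3_CNP and 6.13% between mGC1_GFAP and mGC2_NES. The moderated F test of any difference called 0 members and 4.05% of all probe sets, with the lowest member value at adjusted p = 0.118 for Aldoc. An unadjusted p under 0.05 was reached by 0, 3 and 4 member probe sets in the 3 comparisons as listed, against 12.9%, 13.3% and 20.6% of all probe sets, and by the F test for 4 members, against 19.5%. Arrays did not overlap for 2, 1 and 3 member probe sets, against 19.4%, 18.2% and 26.5%.

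The members nearest to the threshold were those of mGC1_GFAP against mGC2_NES. Slc1a3 differed by 2.41 ± 0.75 (adjusted p = 0.0996), Aldoc by -0.31 ± 0.08 (adjusted p = 0.0527), Ndrg2 by -0.51 ± 0.16 (adjusted p = 0.0960) and Apoe by -0.62 ± 0.21 (adjusted p = 0.121). Slc1a3 was the one with the higher mean in mGC1_GFAP, and the mGC2_NES mean of Slc1a3 was at the level of absent transcripts. The 3 mGC1_GFAP and 3 mGC2_NES arrays did not overlap for Slc1a3, Aldoc and Ndrg2. Aldoc passed in this comparison after another round of quantile normalization (-0.35, adjusted p = 0.0279), with a variance prior that follows intensity (adjusted p = 0.0251), with dim probe sets left out (adjusted p = 0.0457) and without mGC3_CNP replicate 1, which enters through the shared spread (adjusted p = 0.0458). Without that array Ndrg2 passed too (adjusted p = 0.0123). Apoe passed without mGC2_NES replicate 3, at -0.91 against mGC2_NES (adjusted p = 0.00993) and, for mGC2_NES against mGC3_CNP, at 0.81 (adjusted p = 0.0253). For mGC2_NES against mGC3_CNP with all arrays, the differences were -2.03 for Slc1a3 (adjusted p = 0.288), 0.36 for Ndrg2 (adjusted p = 0.369) and 0.53 for Apoe (adjusted p = 0.325). Without mGC3_CNP replicate 1 the Ndrg2 difference was 0.15 (adjusted p = 0.560).

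The spread between cultures of 1 tumour group differed widely among the members. For Slc1a3 the SD pooled over the 3 tumour groups was 1.13, larger than that of 99.8% of all probe sets tested, and the 9 tumour cultures spanned 4.42 on the log2 scale, or 21.4-fold. It was large in mGC1_GFAP (SD 1.30) and mGC3_CNP (SD 1.37) and smaller in mGC2_NES (SD 0.53), where levels were near background. The pooled SD was 0.41 for Slc1a2, 0.40 for Clu and 0.31 for Apoe, above 96.9%, 96.8% and 94.3% of all probe sets. For Apoe and Clu the SD was largest in mGC2_NES, at 0.50 and 0.64, against 0.14 and 0.25 in mGC3_CNP and 0.11 each in mGC1_GFAP. Ndrg2 had a pooled SD of 0.22 and was most variable in mGC3_CNP (SD 0.36), where replicate 1 at 12.09 was the lowest tumour culture. The spread was 0.16 and 0.13 for the Glul probe sets, 0.12 for Aldh1l1, 0.09 for Aldoc and 0.06 for Aqp4, against a median of 0.115 over all probe sets. For Aqp4 and Aldh1l1 these are spreads of readings at background. Aldoc had the opposite pattern to Slc1a3, with a smaller SD in each tumour group than in NSC cultures, where it was 0.50 and above that of 98.1% of all probe sets. Among the tumour cultures, Slc1a3 and Slc1a2 were highest in mGC1_GFAP replicate 1, Apoe in mGC2_NES replicate 2 and Clu in mGC2_NES replicate 3.

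**Figure D3:**
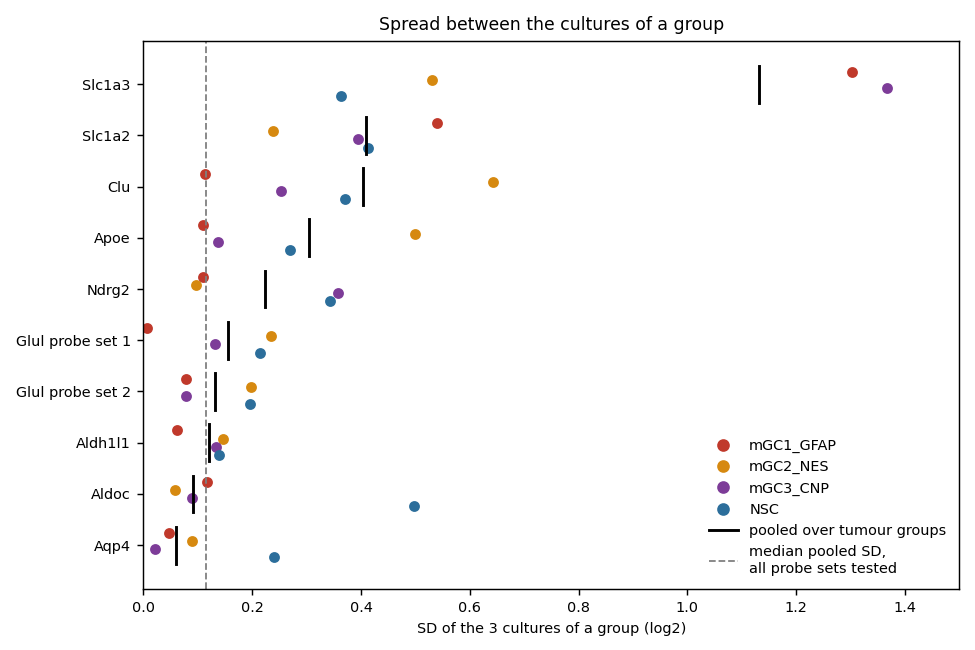
SD of the 3 cultures of a group (x axis, log2) for each member probe set (y axis, ordered by the pooled value). Points are the 4 groups, the black bar is the SD pooled over the tumour groups, and the dashed line at 0.115 is the median pooled SD of all probe sets tested. Slc1a3 lies far to the right of all other members in mGC1_GFAP and mGC3_CNP, and Aldoc is widest in NSC.

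Relatives of the members in the same gene families did not all move with them. Slc1a1, the glutamate transporter EAAC1 of neurons and oligodendrocyte lineage cells, read 11.90 to 12.43 in tumour cultures and 8.07 to 8.73 in NSC cultures, so it rose by 3.65 ± 0.13 (adjusted p = 2.17e-09) while Slc1a3 fell. The neutral amino acid transporter genes Slc1a4 (-0.97 ± 0.11) and Slc1a5 (-1.10 ± 0.14) fell. Aldh1l2, the mitochondrial counterpart of Aldh1l1, read 10.35 to 10.88 in tumour cultures and 9.01 to 9.39 in NSC cultures and rose by 1.51 ± 0.10 (adjusted p = 2.96e-07). Aldoa, the general aldolase, read 12.20 to 12.99 in tumour cultures and 12.93 to 13.07 in NSC cultures and fell by 0.48 ± 0.13 (adjusted p = 0.0138), against the rise of Aldoc. Ndrg3 rose by 0.64 ± 0.09 with Ndrg2, while Ndrg1 differed by -0.09 and did not pass. Ndrg4 differed between tumour groups, where it was higher in mGC2_NES than in mGC3_CNP by 0.88 (adjusted p = 0.00191) and lower in mGC1_GFAP than in mGC2_NES, at -0.86 (adjusted p = 0.00171).

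**Figure D4:**
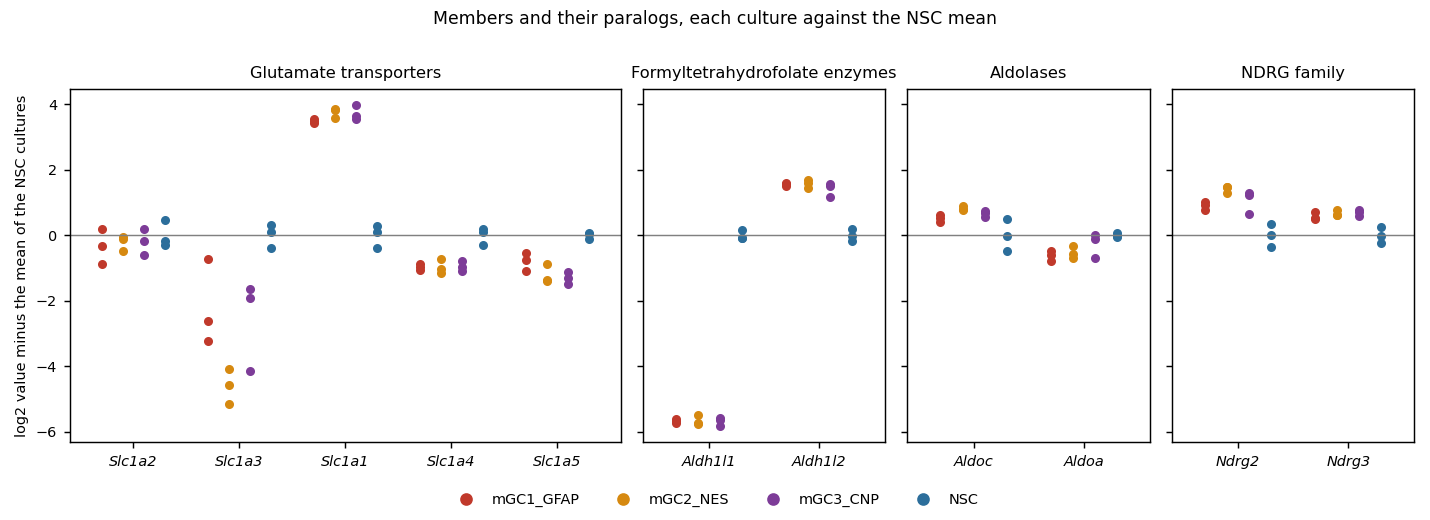
Log2 value minus the mean of the NSC cultures (y axis) of members and of relatives in the same gene family (x axis), 1 point per culture, coloured by group. Slc1a1 and Aldh1l2 lie above 0 in all 9 tumour cultures, where Slc1a3 and Aldh1l1 lie below it.

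The other genes of the pathways were taken from lists, which are compared here in the tumour cultures against NSC. Here and in the marker lists of other cells, a gene with several probe sets was counted by the probe set with the smallest p. That choice favours calls, unlike the shares over all probe sets. In the glutamate list it applied to Slc38a1 and Got2, the second called at -0.14 (limma adjusted p = 0.0399). Of 15 measured genes of glutamate uptake and the glutamine cycle, 7 rose, 8 fell and 0 did not pass, with a median of -0.14. Among the rises, Slc1a6 and Slc38a5 had both group means in the range of absent transcripts. Besides Slc1a1, the glutamine transporter gene Slc38a3 rose by 1.20 ± 0.24 and the sodium pump subunit gene Atp1b2 by 1.16 ± 0.18. The metabotropic receptor genes Grm3 (-3.33 ± 0.20) and Grm5 (-2.18 ± 0.51) and the cystine-glutamate exchanger gene Slc7a11 (-3.22 ± 0.30) fell, Grm3 and Slc7a11 to background, so that their sizes are lower bounds. Of 11 measured genes of the endfoot and water balance, 2 rose, 6 fell and 3 did not pass, with a median of -0.26. Aqp9, counted as a fall, had both group means in the range of absent transcripts. The bicarbonate cotransporter gene Slc4a4 (-4.48 ± 0.19), Mlc1 (-3.98 ± 0.14), whose product sits at endfoot membranes, and its partner Hepacam (-1.64 ± 0.40) fell, the first pair to background, so that their sizes are lower bounds. The cation channel gene Trpv4 rose by at least 1.16 ± 0.14 and the potassium channel gene Kcnj10 by 0.34 ± 0.11. The endfoot list thus held falls at the level of background, as Aqp4 did, next to the rise of Kcnj10, whose tumour and NSC arrays overlapped. By origin, Kcnj10 passed only in mGC2_NES (limma adjusted p = 0.0138) and not in mGC1_GFAP (0.173) or mGC3_CNP (0.111). The fall of Hepacam passed only in mGC1_GFAP (limma adjusted p = 0.00370) and not in mGC2_NES (0.0721) or mGC3_CNP (0.0584). That of Grm5 passed in mGC1_GFAP (limma adjusted p = 0.0109) and mGC2_NES (0.0140) but not in mGC3_CNP (0.0567).

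Of 12 measured folate and one-carbon genes, 1 rose, 9 fell and 2 did not pass, with a median of -0.40. The rise was that of Aldh1l2, and the largest falls were those of Gldc of the glycine cleavage system (-2.12 ± 0.15), the methionine synthase gene Mtr (-1.09 ± 0.09) and Amt, also of glycine cleavage (-0.86 ± 0.16). Of the 16 measured genes of lipoproteins and cholesterol export, 6 rose, 7 fell and 3 did not pass, with a median of -0.01. Nr1h3, counted as a fall, had both group means in the range of absent transcripts. The cholesterol exporter gene Abcg1 rose by 2.24 ± 0.37, the receptor genes Vldlr by 1.13 ± 0.12 and Lrp1 by 0.73 ± 0.14, while Abca1, which loads lipid onto apolipoprotein E, fell (-1.19 ± 0.20). The phospholipid transfer gene Pltp (-2.06 ± 0.15) and the lipase gene Lpl (-1.06 ± 0.09) fell to background, so that their sizes are lower bounds. In contrast, of 29 other astrocyte markers 19 fell, 2 rose and 8 did not pass, with a median of -0.80. Among those falls, Itih3, Dio2 and Slco1c1 had both group means in the range of absent transcripts. The connexin gene Gja1 (-5.31 ± 0.06, a lower bound on the size), the fatty acid enzyme gene Acsbg1 (-4.03 ± 0.31) and the sulphur amino acid enzyme gene Cbs (-3.06 ± 0.06) fell, while S100b, a marker shared with the oligodendrocyte lineage, rose by at least 4.62 ± 0.12 and Gpr37l1 by 1.31 ± 0.20. Over all probe sets the called shares were 17.6% higher and 19.2% lower.

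**Figure D5:**
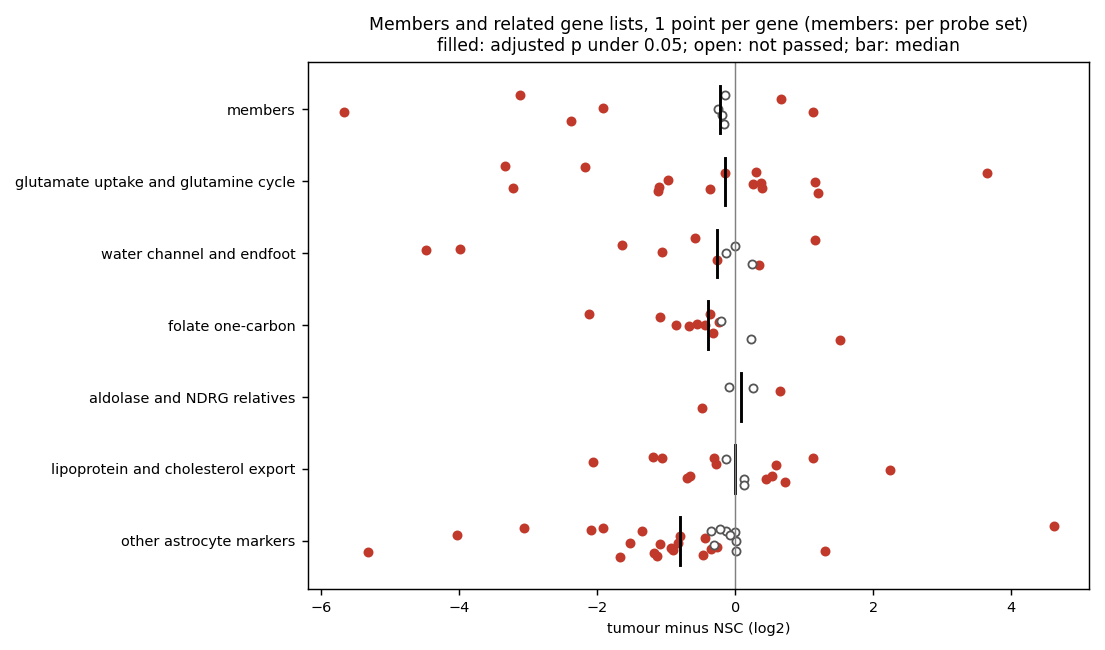
Tumour minus NSC difference (x axis, log2) of the member probe sets and of the genes in 6 related lists (y axis), 1 point each, filled where the adjusted p was under 0.05, with a bar at the median. The list of other astrocyte markers has its median at -0.80, the members at -0.22 and the lipoprotein list at -0.01.

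Between tumour groups, listed genes were called mainly for mGC1_GFAP against mGC2_NES. Lower in mGC1_GFAP were Abca1 (-1.22, adjusted p = 0.0305) and the lipid regulator gene Srebf1 (-1.47, adjusted p = 0.0204), as well as Trpv4 (-0.91), Mt1 (-0.75), S100b (-0.59), Fjx1 (-0.54), Dtna (-0.47), Dio2 (-0.47) and Cst3 (-0.39). Higher in mGC1_GFAP were the folate enzyme genes Mthfd2 (0.56), Mthfd1 (0.44) and Tyms (0.43) and the transaminase gene Got2 (0.27). For Got2 this is the probe set with the smaller p of its 2. Of the marker lists of other cells, the stem cell genes Nes (1.01, adjusted p = 0.0181) and Nr2e1 (0.68, adjusted p = 0.0139) and the neuronal gene Syt1 (1.24, adjusted p = 0.0410, a lower bound on the size) were also higher in mGC1_GFAP than in mGC2_NES. Both Dio2 means, 5.98 in mGC1_GFAP and 6.46 in mGC2_NES, lay within the range of absent transcripts. None of these calls involved a member.

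Marker lists of other cells were also compared between tumour and NSC cultures, where 17.6% of all probe sets were higher and 19.2% lower. Differentiated oligodendrocyte markers (6 measured) had 3 rises and 1 fall, and endothelial markers (6 measured) 1 rise and 0 falls. Pericyte and fibroblast markers (7 measured) had 2 rises and 2 falls. Neuroblast and neuron markers (7 measured) and ependymal markers (4 measured) each had 0 rises and 2 falls. Several of these calls had both group means at or below 7.42, the top of the range of absent transcripts. They were the rises of Pecam1 (endothelial), Lum and Dcn (pericyte and fibroblast). The falls of Mobp (differentiated oligodendrocyte), Rgs5 (pericyte and fibroblast) and Rsph1 (ependymal) were also among them. Of 7 oligodendrocyte precursor markers 5 rose and 0 fell, and their summed log2 level was 88.3 to 89.5 in tumour cultures and 68.7 to 70.6 in NSC cultures. Of 6 neural stem cell markers 0 rose and 5 fell, with a sum of 51.5 to 55.0 in tumour cultures and 64.6 to 65.9 in NSC cultures. The 12 probe sets of the astrocyte marker list, which holds the members with Gfap and Gja1, summed to 107.2 to 110.9 in tumour cultures and 126.4 to 129.1 in NSC cultures. Group means above 7.42 were found for 8 of these 12 in tumour cultures and for all 12 in NSC cultures. The part of these marker shifts in the members' differences was not tested. In the tumour cultures the label of the set as astrocyte genes holds only in part. Over all tumour cultures, Aldh1l1, Aqp4, Gfap and Gja1 had means at background and Aldoc, Ndrg2, Glul, Slc1a2, Slc1a3, Apoe and Clu did not. In mGC2_NES alone, however, the Slc1a3 mean was also at that level (7.36).

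For each member called with a difference of at least 1, the genes with the most similar profile over the 12 arrays were those with the smallest root mean square (RMS) difference after each gene's own mean was subtracted. For Aldh1l1 these were Egfr (0.202) and Gja1 (0.202), and for Aqp4 Lipg (0.12) and Terc (0.14). For Apoe they were Fjx1 (0.24) and Mrps6 (0.26), and for Ndrg2 Brinp2 (0.17) and Ppp1r14c (0.18). For Slc1a3 they were Anxa6 (0.55) and B3gnt5 (0.67). The RMS difference was not scaled to a gene's own spread, so its size cannot be compared between members. All these profiles share the same 12 arrays and the difference between tumour and NSC cultures.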

How the data were processed

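Total RNA of 12 cultures was measured on 12 arrays. The authors deposited 1 log2 value per probe set and array, computed by RMA. Per the submitters' processing notes, the software was Affymetrix Expression Console. Neither its version nor the summarisation level is given in the sources used here. RMA scales all arrays to 1 distribution, so a shift shared by most genes is not visible. Values were used as deposited. Arrays hold no read depth, and their number limits the precision. Of 28270 probe sets, the 21780 with exactly 1 symbol in the platform annotation of 2016 were tested, and 1617 with several symbols and 4873 not listed were left out. Tests used limma 3.58.1 in R 4.3.3 (lmFit, eBayes, two-sided, Benjamini-Hochberg adjustment over all 21780). Comparisons with NSC were fitted on 12 arrays, those among tumour groups on the 9 tumour arrays. Standard errors and 95% intervals are limma's.

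The members and gene lists were chosen with earlier results of these data known. Members were always named. Each pathway list gave up to 3 called genes with the largest rise and 3 with the largest fall against NSC, and every gene called between tumour groups. Further relatives of the members (Slc1a4, Slc1a5, Ndrg1) and the genes given from the marker lists of other cells were named after their values were seen. The tests among tumour groups used no pairing, and the replicate number entered only as a block in an alternative fit. The labels state no pairing across groups. In the data, all 3 same-numbered pairs of mGC2_NES with mGC3_CNP correlated in their deviations above 0.1 (0.132 to 0.254). Alternatives were another quantile normalization, median centring, another variance prior, dim probe sets (mean under 6) left out, array weights, probe sets averaged per gene, blocks, and each array left out. The fit was tested on simulated data. Positions, promoter windows and gene names are those of RefSeq GRCm38.p6, and 21689 gene identifiers matched.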

Additional observations from a re-analysis of the deposited data

How the results depend on the processing

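For tumour against NSC cultures, 189 of 190 alternative values of the members kept their direction and their side of the threshold. The exception was Clu, between -0.349 and 0.0211 with each array left out. Of the other comparisons with NSC, 169 of 180 values held for mGC1_GFAP, 178 of 180 for mGC2_NES and 175 of 180 for mGC3_CNP. Differences that changed sign with an array left out, all of them short of the threshold, ran from -0.159 to 0.0514 for Glul probe set 1 in mGC1_GFAP, from -0.356 to 0.0270 and from -0.389 to 0.0364 for Slc1a2 in mGC2_NES and mGC3_CNP, and from -0.518 to 0.124 and from -0.0642 to 0.306 for Clu in mGC2_NES and mGC3_CNP. In mGC1_GFAP against NSC, 2 member probe sets were higher after another quantile normalization and with array weights, and 1 to 2 with each array left out. In mGC3_CNP they were 1 to 2. For mGC1_GFAP against mGC2_NES, 1 member probe set was lower after another quantile normalization, with a variance prior that follows intensity and with dim probe sets left out, and 0 to 2 with each array left out. For mGC2_NES against mGC3_CNP, 0 to 1 were higher, and the F test called 0 to 1. Over all probe sets, mGC1_GFAP against mGC3_CNP gave 195 calls with array weights, 65 with all 12 arrays in the fit and 24 to 106 with an array left out. Leaving out an array gave 42 to 133 calls for mGC2_NES against mGC3_CNP, 534 to 1619 for mGC1_GFAP against mGC2_NES and 222 to 945 by the F test. The cause of these changes was not tested, and a fit with an array left out also rests on fewer arrays.

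With the replicate number as a block, 74, 121 and 1436 probe sets were called for mGC1_GFAP against mGC3_CNP, mGC2_NES against mGC3_CNP and mGC1_GFAP against mGC2_NES, 856 by the F test, and 0 member probe sets in each. No member call changed with this block. Same-numbered cultures correlated in their deviations by 0.00224 to 0.107 for mGC1_GFAP with mGC2_NES. For mGC1_GFAP with mGC3_CNP the correlations were 0.0287 to 0.254, so not all were above 0.1 in either case. Differently numbered cultures were not compared, so these correlations cannot show whether the numbers pair any of the groups. With mouse line as a block, tumour against NSC gave 7821 calls, with 2 member probe sets higher and 4 lower.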
